A study of Mus musculus with 50 samples.

Results

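Scn4a, Scn4b and Clcn1 encode the sodium channel pore, a sodium channel beta subunit and the chloride channel of the muscle fiber membrane, the sarcolemma. The 3 genes were taken by symbol from the deposited mouse tables, which list 23880 genes. All 3 passed the expression filter, a level of 1 CPM or more in no fewer than 8 mice (CPM being counts scaled to the library total), that left 12586 genes for testing. Gastrocnemius, a mixed but mostly fast-twitch calf muscle, was sequenced by poly(A)-selected RNA-seq from 50 male wild-type C57BL/6JRj mice. There were 8 mice each at 8, 18, 22 and 24 months of age and 9 each at 26 and 28 months, every mouse giving 1 library. The mice were kept in single cages on the purified diet AIN93M, and only animals free of apparent disease entered the study. Mice of 22 to 28 months had been on that diet since about 18 months of age, whereas mice of 8 and 18 months had it for at least 2 months before the end. Differences between 8 and 28 months therefore go together with the time on the diet, and age and diet time cannot be told apart there. The comparison of 28 with 22 months lies within a single diet regime, but time on the diet still rises with age in it. No gene was deleted and no drug was given to these animals. Whole muscle was used, so that fewer fibers and less RNA per fiber cannot be told apart. The question asked of these genes was whether the messages that set the excitability of the fiber membrane shift along natural muscle aging.

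In a muscle fiber, the action potential spreads along the surface and into the transverse tubules when the sodium channel opens, and a high resting chloride conductance steadies the membrane afterwards. The pore protein of Scn4a carries the sodium current, and beta subunits such as that of Scn4b are single-pass proteins that modify its gating and its place in the membrane. Loss of the chloride channel makes fibers fire repeatedly, the sign known as myotonia, and mutations in the sodium channel gene cause myotonia or periodic paralysis.

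In the GENCODE annotation of GRCm38, Scn4a (ENSMUSG00000001027) lies on the minus strand at chr11:106318592-106353288 and its longest transcript has 24 exons. Scn4b (ENSMUSG00000046480) lies on the plus strand at chr9:45138395-45154152 with 5 exons. Clcn1 (ENSMUSG00000029862) lies on the plus strand at chr6:42286685-42315756 with 23 exons in its longest transcript. The promoters are shown because the levels of Scn4b and Clcn1 ran together across mice, as given further on with the other pairs. Each stretch is 300 bases of RefSeq GRCm38.p6, read 5′ to 3′ on the strand of the gene. It runs from 250 bases before the RefSeq start to the bases just after it. Capitals mark matches to the motif of MEF2, a muscle transcription factor family, and to the E-box CANNTG, the core bound by the MyoD family.
Scn4a: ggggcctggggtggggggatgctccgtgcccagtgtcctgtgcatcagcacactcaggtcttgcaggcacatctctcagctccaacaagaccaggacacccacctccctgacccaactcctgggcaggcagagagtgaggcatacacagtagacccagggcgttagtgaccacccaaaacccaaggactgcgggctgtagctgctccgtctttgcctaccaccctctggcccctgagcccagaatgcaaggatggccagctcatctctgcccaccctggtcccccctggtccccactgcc
Scn4b: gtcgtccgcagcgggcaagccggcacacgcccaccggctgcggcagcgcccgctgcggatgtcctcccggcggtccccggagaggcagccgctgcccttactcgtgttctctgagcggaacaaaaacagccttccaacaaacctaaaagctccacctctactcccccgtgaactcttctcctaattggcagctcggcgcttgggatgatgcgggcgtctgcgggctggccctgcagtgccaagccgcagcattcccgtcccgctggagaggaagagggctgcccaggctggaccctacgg
Clcn1: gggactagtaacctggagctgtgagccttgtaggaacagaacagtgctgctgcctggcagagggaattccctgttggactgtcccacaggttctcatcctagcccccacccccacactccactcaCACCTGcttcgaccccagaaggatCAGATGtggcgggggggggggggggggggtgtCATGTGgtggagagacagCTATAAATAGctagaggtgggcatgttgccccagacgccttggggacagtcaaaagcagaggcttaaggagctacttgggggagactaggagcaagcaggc
The Scn4a stretch is chr11:106349341-106349640, the Scn4b stretch chr9:45138374-45138673 and the Clcn1 stretch chr6:42286435-42286734. For Scn4a and Scn4b the RefSeq start differs from that of the GENCODE gene. All of the Scn4a stretch lies inside the GENCODE gene, and so does most of the Scn4b stretch. Unlike the Clcn1 window, they hold few or none of the bases before the GENCODE start, so motifs further upstream there were not searched. Searched on both strands, the MEF2 motif was found only in the Clcn1 window among these 3, at -51 to -42 from the start counted as 0, and 3.19% of 32851 RefSeq promoters of that length hold it. A TATAAA match lies inside that MEF2 match, at -50 to -45, and 13.6% of promoters hold that motif. The same window has 3 E-boxes, against a share of 72.3% of all promoters with at least 1 of them. The Scn4b window has a CATTCC (MCAT) match at -1 to 4, which 14.7% of promoters have. GGGCGG (35.7% of promoters) and the CArG motif (1.63%) were found in none of these 3 windows, and Scn4a had no match to any of the 6 motifs. These are matches of letters in these windows and nothing about binding was measured.

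Library totals ran from 13607229 to 21267375 counts. In every library the muscle markers Ckm, Acta1, Des, Mylpf, Mb, Tnnt3 and Atp2a1 were abundant, and the cardiac marker Myl7 was at 0. The 5 cardiac markers listed, Myl7 among them, summed to 8.88 to 21.6 CPM at 8 months and 16.8 to 37.5 CPM at 28 months. Cardiac markers were thus low but not all absent, beside muscle markers that summed to 103799 to 131946 CPM at 8 months. A pair of libraries stood apart in the values below. Replicate 3 at 8 months had the lowest Scn4a of all mice, and replicate 2 at 28 months had the lowest Scn4b and Clcn1 of all mice, with the lowest summed muscle markers and the highest summed macrophage markers of its age. Values without them stand beside the results they moved most.

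The pore gene Scn4a stayed at a similar mean in all 6 ages, as the plot of normalized counts by age shows. At 8 months its level ran from 322 to 729 CPM with a median of 596, and the mean was 579 ± 126 (SD, n = 8). At 28 months it ran from 507 to 751 CPM with a median of 585, and the mean was 615 ± 79.8 (SD, n = 9). The groups overlapped, with 1 of the 9 oldest mice above every 8-month mouse and none below. Means at the ages in between were 587 ± 89.5 CPM at 18 months, 593 ± 71.3 at 22 months and 609 ± 80.4 at 24 months (SD, n = 8 each), and 609 ± 53.4 at 26 months (SD, n = 9). In order of the mean, 28 months came first and 8 months last, and every neighboring pair in that order differed by less than the SD of either group. The log2 fold change from 8 to 28 months was 0.09 with an SE of 0.10 and a 95% interval of -0.12 to 0.30 (adjusted p = 0.499, edgeR quasi-likelihood test with Benjamini-Hochberg adjustment over all tested genes). In linear terms that interval reaches from -8.21% to 22.9%. Over all ages together the F test gave an adjusted p of 0.966 in edgeR. Without the 8-month replicate 3 the difference was -0.0022 (log2), so its sign rests on that library, and the 8-month SD was 77.7 CPM in place of 126.

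**Figure D1:**
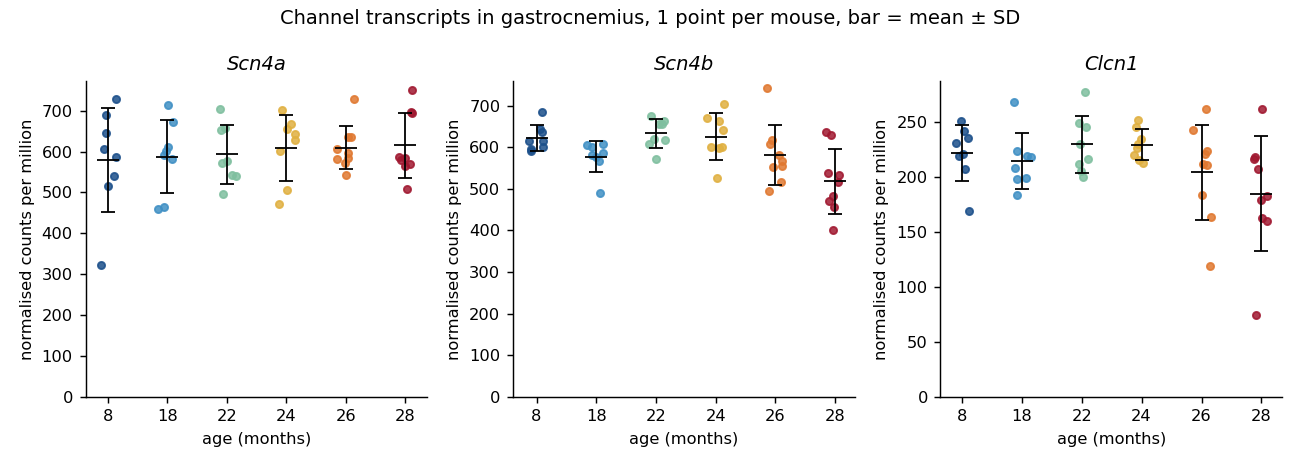
Normalized counts in CPM (y axes) of Scn4a, Scn4b and Clcn1 against age in months, 1 point per mouse, with bars for the mean and SD of each age. Scn4a means lie between 579 and 615 CPM at every age, Scn4b falls to 518 CPM at 28 months, and the points of Clcn1 at 28 months run from 74.4 to 262 CPM, or from 160 CPM without replicate 2.

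Scn4b, the beta subunit gene, was lower in the oldest mice. At 8 months its level ran from 590 to 685 CPM with a median of 616, and the mean was 623 ± 31.6 (SD, n = 8). At 28 months it ran from 400 to 636 CPM with a median of 517, and the mean was 518 ± 77.6 (SD, n = 9). Of the 9 oldest mice, 7 were below every 8-month mouse and none was above, although the ranges overlapped through the other two. Levels in between were 577 ± 37.7 CPM at 18 months, 634 ± 34.9 at 22 months and 625 ± 56.0 at 24 months (SD, n = 8 each), and 581 ± 71.9 at 26 months (SD, n = 9). The order of the means was thus 22, 24, 8, 26, 18 and 28 months, with no steady course with age before the last group. Ages 22, 24 and 8 months followed each other by less than either SD, as did 26 and 18 months. The steps from 8 to 26 months and from 18 to 28 months were larger than the SD of at least 1 of the neighbors. At 18 months, 5 of 8 mice were below every 8-month mouse, but the log2 fold change of -0.11 did not pass the test (95% interval -0.26 to 0.04).

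From 8 to 28 months Scn4b fell by 0.27 on the log2 scale (SE 0.07, 95% interval -0.41 to -0.12, adjusted p = 0.00187 in edgeR), a change of -16.8%. It was the only member called out of the 3 in that comparison, in which 39.6% of the tested genes were called at an adjusted p under 0.01, 21% higher and 18.7% lower, so that 1 of 3 is not far from the share of all genes. Within the later diet regime, from 22 to 28 months, it fell by 0.29 (SE 0.07, adjusted p = 0.00132 in edgeR), a change of -18.2%. There again 1 of the 3 members was called, against 27.7% of all tested genes (16.2% higher, 11.5% lower). At 26 months the difference from 8 months was -0.10 (95% interval -0.24 to 0.04, adjusted p = 0.281 in edgeR), where 18.4% of genes were called (9.84% higher, 8.54% lower) and none of the members was. From 26 to 28 months it was -0.17 (95% interval -0.31 to -0.03), with an unadjusted p of 0.0212 and an adjusted p of 0.348 in edgeR. The F test over all ages called Scn4b (adjusted p = 0.00472 in edgeR), as it did 35.4% of genes. With both libraries that stood apart left out, the change from 8 to 28 months was -0.23 (adjusted p = 0.00800 in edgeR). On TPM, which also scales counts by transcript length, with limma it was -0.21 (adjusted p = 0.0242), and with only the mice of these ages in the edgeR fit it was -0.27 (adjusted p = 0.0204), so that the call at 0.01 was lost in both. The TPM values were used without TMM factors, and the median change of all tested genes in that limma fit was 0.06, against 0.01 in the main fit.

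Clcn1, the chloride channel gene, had a lower mean and a wider spread in the oldest mice. At 8 months its level ran from 169 to 251 CPM with a median of 226, and the mean was 222 ± 25.6 (SD, n = 8). At 28 months it ran from 74.4 to 262 CPM with a median of 183, and the mean was 185 ± 52.4 (SD, n = 9). The oldest group thus held 3 mice below every 8-month mouse and 1 above, and its coefficient of variation was 28.3% against 11.5% at 8 months. Without replicate 2 the oldest mice ran from 160 to 262 CPM with a coefficient of variation of 17.3%, and without replicate 3 that of the 8-month mice was 6.51%. The spread was described and not tested. At 26 months it ran from 119 to 262 CPM with a mean of 204 ± 43.1 (SD, n = 9), while at 18, 22 and 24 months the means were 215 ± 25.5, 230 ± 26.4 and 229 ± 14.1 CPM (SD, n = 8 each). In the order 22, 24, 8, 18, 26 and 28 months, each neighboring pair differed by less than either SD.

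The log2 fold change of Clcn1 from 8 to 28 months was -0.26 (SE 0.13, 95% interval -0.52 to -0.0037), which missed the threshold (adjusted p = 0.0814 in edgeR). Its estimate was almost that of Scn4b, with an interval from -30.4% to -0.256%, so that a loss of nearly 0 and a loss larger than that of Scn4b both lie within it. Without replicate 2 at 28 months it was -0.16 (adjusted p = 0.208 in edgeR). From 22 to 28 months it was -0.31 (95% interval -0.57 to -0.05, adjusted p = 0.0460 in edgeR), also short of the threshold of 0.01, and -0.21 without that library. The F test over all ages gave an adjusted p of 0.227 in edgeR. The other contrasts, 18, 22, 24 and 26 months against 8 months, each age against the one before it from 22 months on, and 26 against 22 months, called none of the 3 members. In 18 against 8 months 0.0715% of genes were called, in 22 against 8 months 0.0397%, in 24 against 8 months 0.612% and in 26 against 22 months 2.65%. Neighboring ages called 0.00795% of genes from 18 to 22 months and none from 22 to 24, 24 to 26 or 26 to 28 months, where 478, 2202 and 1609 genes had an unadjusted p under 0.05 in edgeR. With no change at all, a share of 0.05 of the 12586 tested genes would be expected there, and 478 is below that share.

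Per unit of length, the TPM scale on which genes can be set side by side, Scn4b and Scn4a lay close together and Clcn1 lower. At 8 months the means were 216 ± 18.0 TPM for Scn4b, 206 ± 68.2 for Scn4a and 118 ± 19.4 for Clcn1 (SD, n = 8). At 28 months they were 187 ± 24.5, 237 ± 23.0 and 102 ± 27.3 TPM (SD, n = 9), so that the mean of Scn4a was then the higher of the sodium channel pair. Without replicate 3 the 8-month means were 223 ± 49.9 TPM for Scn4a and 220 ± 15.2 for Scn4b (SD, n = 7), and Scn4b was below Scn4a in 4 of 8 mice at 8 months and in 8 of 9 at 28 months. A ratio of 2 genes within a mouse does not depend on the scaling between libraries, and the plot of ratios by age shows these values. It does keep whatever moves 1 of its genes alone. Scn4a, the lower term of 2 of the ratios, ran with a transcript-length difference given further on (r = 0.73), whose part in the ratios was not tested. The ratio Scn4b/Scn4a ran from 0.809 to 2.30 with a median of 1.03 at 8 months and from 0.597 to 1.03 with a median of 0.773 at 28 months. Of the 9 oldest mice, 5 lay below every 8-month mouse. The mean log2 ratio differed by -0.50, or -29.3% (two-sided exact permutation test, p = 0.00621, adjusted p = 0.0466 over 15 comparisons of 3 ratios at 5 ages).

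The ratio Clcn1/Scn4a ran from 0.481 to 0.980 with a median of 0.601 at 8 months and from 0.208 to 0.554 with a median of 0.446 at 28 months. There, 6 of the 9 oldest mice lay below every 8-month mouse, and the mean log2 ratio differed by -0.54 (exact permutation p = 0.00555, adjusted p = 0.0466). Both ratios to Scn4a lost the 0.05 threshold when counts replaced TPM, with differences of -0.39 and -0.44 (exact permutation, adjusted p = 0.0719 for both). They also lost it when the libraries that stood apart were both left out, at -0.34 for Scn4b/Scn4a and -0.31 for Clcn1/Scn4a (exact permutation, adjusted p = 0.186 for both). The ratio of Clcn1 to Scn4b had a median of 0.553 at 8 months and 0.544 at 28 months, a mean log2 difference of -0.04 (exact permutation p = 0.856), with 1 of 9 mice below and 2 above all 8-month mice. At 26 months the difference from 8 months was -0.32 for Scn4b/Scn4a and -0.35 for Clcn1/Scn4a (exact permutation, adjusted p = 0.170 and 0.0833).

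**Figure D2:**
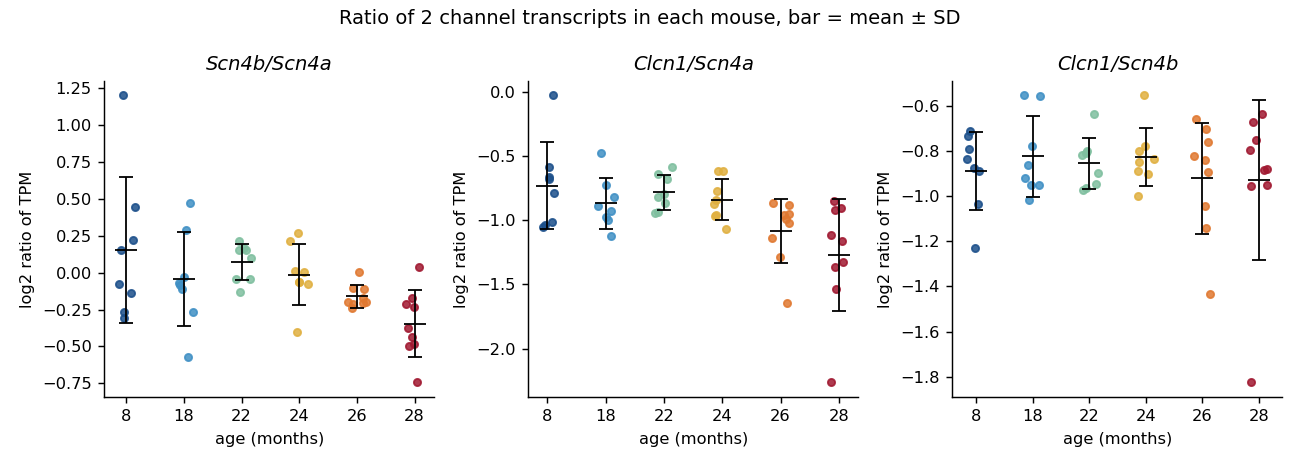
Log2 ratio of TPM of each pair of genes in each mouse (y axes) against age in months, with bars for the mean and SD. At 28 months, 5 of 9 points of Scn4b/Scn4a and 6 of 9 of Clcn1/Scn4a lie below every 8-month point, whereas Clcn1/Scn4b differs by -0.04 on average.

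The genes most like Scn4a across mice were large. By Pearson r of log2 CPM over the 50 mice, a description in which every pair of genes shares its libraries, they were Ryr1, the calcium release channel of the sarcoplasmic reticulum (r = 0.87), Speg, a kinase of the triad (r = 0.87), Gbf1 (r = 0.86), Clasp1 (r = 0.86) and Atp2b1, a plasma membrane calcium pump (r = 0.85). The longest annotated transcripts of these 5 have 15358, 10801, 6450, 10265 and 7130 bases, against a median of 3433 over the tested genes, and that of Scn4a has 6598. A transcript-length difference was therefore computed per mouse after the values were seen. It is the mean log2 deviation of 1835 genes with a transcript of at least 6000 bases minus that of 2572 genes with none over 2000 bases. Scn4a and the 5 genes named above are among the long ones. Scn4b (4982 bases) and Clcn1 (3545 bases) are in neither set. In this difference the 8-month mice ran from -0.69 to 0.39 with a median of -0.11, and the 28-month mice from 0.01 to 0.41 with a median of 0.29. At 22 months the median was -0.11. Replicate 3 at 8 months, with the lowest Scn4a, had -0.69, the second lowest of all mice.

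Scn4a ran with this difference at r = 0.73 over the 50 mice (rho = 0.63) and at 0.79 within ages. The difference was chosen from the genes most like Scn4a and includes it, so part of that r follows from the choice. Scn4b (r = -0.24, within ages 0.04) and Clcn1 (r = -0.14, within ages 0.09), which are not in it, ran with it far less, as the plot against the length difference shows. With the difference as a covariate in the edgeR fit, Scn4b still fell from 8 to 28 months by 0.28 (SE 0.08, adjusted p = 0.00533). For Clcn1 the value was -0.32 (adjusted p = 0.0753). For Scn4a the sign turned, to -0.18 (SE 0.08, adjusted p = 0.0533) against 8 months and -0.20 (adjusted p = 0.0400) against 22 months. The genes called from 8 to 28 months then numbered 2848 in place of 4988. Since the length difference itself moved with age, this fit also takes up what the length difference shares with age, and its part in the results was not tested.

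**Figure D3:**
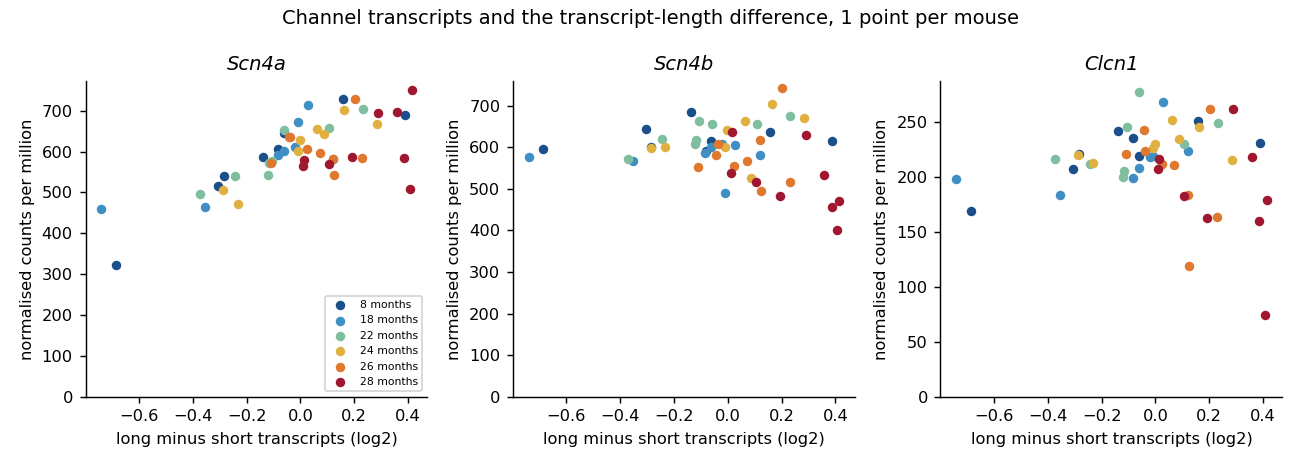
Normalized counts in CPM (y axes) of the 3 genes against the mean log2 difference between genes with long and short transcripts (x axes), 1 point per mouse, colored by age in months. Scn4a rises along the x axis (r = 0.73), whereas Scn4b (r = -0.24) and Clcn1 (r = -0.14) show no such rise. Scn4a itself is among the genes with long transcripts.

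Scn4b and Clcn1 ran together across mice, at r = 0.75 (rho = 0.63, within ages 0.69) on log2 CPM. Scn4a and Clcn1 gave r = 0.44 (rho = 0.59, within ages 0.55), close to the former pair by rank, and Scn4a and Scn4b gave r = 0.19 (rho = 0.31, within ages 0.33). Without the pair of libraries that stood apart, r was 0.70 for Scn4b and Clcn1 (rho = 0.61) and 0.44 for Scn4a and Clcn1 (rho = 0.56). Most like Scn4b were Sema6c (r = 0.80), Rps6ka2, a ribosomal S6 kinase gene (r = 0.79), Hrasls (r = 0.77), Gm5113 (r = 0.77) and D2hgdh, a mitochondrial dehydrogenase gene (r = 0.77). Clcn1 was most like Abcd2, a peroxisomal fatty acid transporter (r = 0.90), Eml1 (r = 0.88), Prkag3, the AMPK subunit of fast muscle (r = 0.87), Gpd1, the cytosolic glycerol phosphate dehydrogenase (r = 0.86), and Tmem233 (r = 0.85). For Clcn1 the rank correlations with Prkag3, Gpd1 and Tmem233 were lower, at 0.58, 0.53 and 0.53. The median r of all tested genes with each member was between -0.01 and -0.002.

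Of the other sodium channel pore genes, Scn7a, an atypical channel gene not gated by voltage, ran from 8.96 to 23.7 CPM at 8 months and from 13.7 to 32.0 CPM at 28 months, and 4 of the 9 oldest mice were above every 8-month mouse. It rose by 0.51 on the log2 scale (SE 0.13, adjusted p = 0.00136 in edgeR), and by 0.29 with the length covariate (adjusted p = 0.0826).

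Beta subunit genes moved in opposite directions. Scn3b, another gene for a single-pass subunit, ran from 0.935 to 2.46 CPM with a median of 1.54 at 8 months and from 2.96 to 13.9 CPM with a median of 9.40 at 28 months, and all 9 oldest mice lay above every 8-month mouse. It rose by 2.56 on the log2 scale (SE 0.33, adjusted p = 6.89e-08 in edgeR), and by 2.32 with the length covariate (adjusted p = 1.49e-05). Scn2b gave 0.19 (95% interval -0.23 to 0.62, adjusted p = 0.456 in edgeR). Against the fall of Scn4b by 0.27 over the same ages, Scn3b thus rose, although its level per length stayed far lower, with 4.99 TPM at 28 months against 187 TPM of Scn4b. At 26 against 8 months Scn3b was already called higher in edgeR (1.86).

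**Figure D4:**
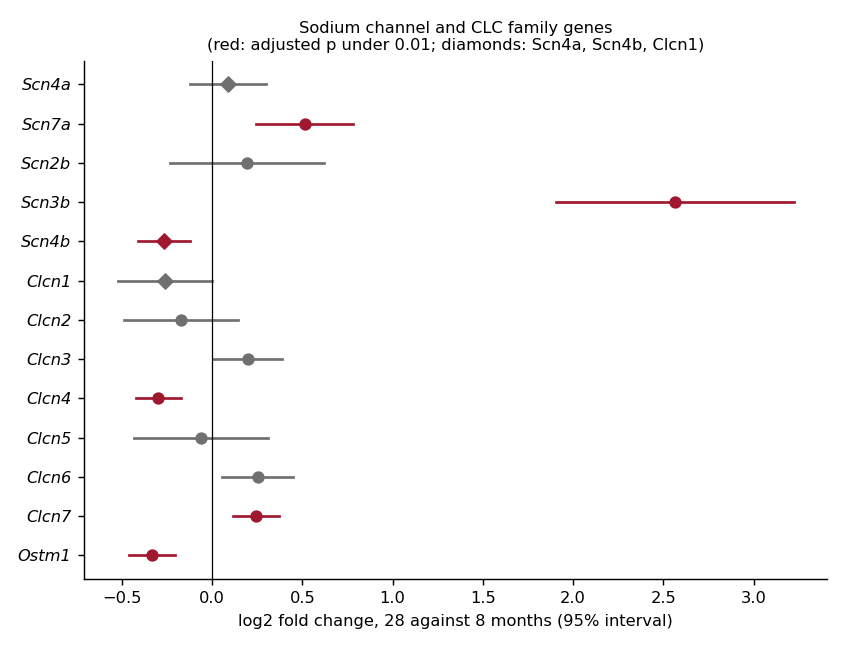
Log2 fold change from 8 to 28 months (x axis) with its 95% interval for sodium channel and CLC genes, red where the adjusted p of edgeR was under 0.01, diamonds for Scn4a, Scn4b and Clcn1. Scn3b (2.56) stands far to the right, Scn4b (-0.27) lies left of 0, and the interval of Clcn1 ends next to 0.

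In the CLC family, Clcn1 had the highest level per length at 8 months (118 TPM), followed by Clcn4 (43.7 TPM). Clcn4, an intracellular chloride-proton exchanger, ran from 75.7 to 93.6 CPM at 8 months and from 61.2 to 77.3 at 28 months, and 8 of the 9 oldest mice lay below every 8-month mouse. It fell by 0.30 (SE 0.06, adjusted p = 0.000133 in edgeR), but gave -0.17 on TPM with limma (adjusted p = 0.113). Clcn7, the lysosomal member, rose by 0.24 (adjusted p = 0.00141 in edgeR), whereas its partner subunit Ostm1 fell by 0.34 (adjusted p = 3.39e-05), with all 9 oldest mice below every 8-month mouse. The value of Clcn7 was 0.14 with the length covariate (adjusted p = 0.0743). Clcn2, Clcn3, Clcn5 and Clcn6 gave -0.17, 0.20, -0.06 and 0.25 and did not pass the test. That made 1 higher and 2 lower of 8 tested of 11 genes listed, beside 21% higher and 18.7% lower among all tested genes. Their median was -0.12 against 0.01 for all genes.

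Of the genes that anchor or regulate the sodium channel, Ank3, which encodes the ankyrin that tethers sodium channels, rose by 1.20 (adjusted p = 4.89e-07 in edgeR), from 93.3 ± 22.1 (SD, n = 8) to 215 ± 73.7 CPM (SD, n = 9). Nedd4l, a ubiquitin ligase that targets sodium channels, rose by 0.65, and by 0.42 with the length covariate (adjusted p = 0.0696). Calm2, a calmodulin gene, fell by 0.89, and Cav3, the muscle caveolin, fell by 0.58, both past the threshold in edgeR.

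Genes listed under the sodium pump gave 3 higher and 3 lower of 10 tested, with a median of 0.07, beside 21% higher and 18.7% lower among all tested genes. Atp1b4, a gene of the beta subunit family whose part in the pump was not examined, rose by 0.97 from 2.06 to 4.06 CPM. Fxyd5, a regulatory subunit, rose by 0.50. Fxyd6 fell by 0.69 and Atp1b2 by 0.44. Their calls were the least stable of those named, and the call of Fxyd6 was lost in 10 of 17 fits that left out a single mouse. Of the factors known to control splicing of the Clcn1 message, 3 of 4 tested rose and none fell, with a median of 0.36. Among all tested genes 21% were called higher and 18.7% lower. The values are summed per gene, so the splicing of Clcn1 was not measured. Celf2 rose by 0.60, Mbnl2 by 0.37 and Mbnl1 by 0.35, and with the length covariate none of these 3 passed, with adjusted p of 0.0195, 0.271 and 0.0382 in edgeR.

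Markers of other states and cells moved in the same mice. Of 9 tested denervation-response genes such as Chrna1, Runx1, Myog and Gadd45a, 7 rose and none fell from 8 to 28 months, with a median of 1.27, against 21% higher and 18.7% lower among all tested genes, the background for each marker list of this comparison. Their summed level ran from 355 to 656 CPM at 8 months and from 637 to 1321 CPM at 28 months. Slow-fiber markers had no call in 7 tested (median 0.55), and their summed level ran from 358 to 1977 CPM at 8 months and from 749 to 3191 CPM at 28 months. Fast IIB markers had 2 higher and 1 lower of 7 (median 0.25), and muscle identity markers 2 higher of 7 (median -0.06).

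Macrophage markers had 3 higher of 6, with a summed level of 129 to 248 CPM at 8 months and 199 to 486 CPM at 28 months. Adipocyte markers had 4 lower of 5, from 61.8 to 222 CPM at 8 months to 40.7 to 106 CPM at 28 months, and fibroblast markers 3 lower of 5, from 944 to 1301 CPM to 658 to 915 CPM. Schwann cell markers had no call in 6, with 54.1 to 232 CPM at 8 months and 64.4 to 216 CPM at 28 months, and endothelial markers had 1 lower of 5, with 186 to 256 CPM and 186 to 266 CPM. Of the cardiac markers, 2 of 5 were tested and neither passed, and Nppb and Myl7 were at 0 in all 8- and 28-month libraries. What part these shifts have in the levels of Scn4b, Clcn1 and Scn3b was not tested.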

How the data were processed

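Poly(A) RNA of gastrocnemius from 50 male mice at 6 ages was sequenced, 1 library per mouse. The authors trimmed reads with cutadapt 1.9.1, assigned them by strand to protein-coding Ensembl transcripts on GRCm38 with kallisto 0.43.1, summed transcripts to genes and deposited whole-number counts and TPM values, a read shared by several transcripts being split among them. Groups are the ages in the labels. From the counts, edgeR 4.0.16 (R 4.3.3) was run with TMM factors, all 6 ages in a single fit, a filter of 1 CPM in at least 8 mice, the quasi-likelihood test and Benjamini-Hochberg adjustment over all tested genes at a threshold of 0.01. Normalized counts are CPM on TMM-scaled totals. An SE is the log2 fold change over the square root of its F statistic, and intervals are 95% intervals from the same fit. Ratios were taken on the deposited TPM values and compared by exact permutation (threshold 0.05). DESeq2 1.42.0 and limma 3.58.1 (log2 of TPM plus 1 or plus 0.1), other factors, no filter, a likelihood ratio test, a replicate block, fits of only the compared ages and fits without each mouse were run as alternatives. The fits without a pair of libraries and with the length covariate were added after the data were seen. Library totals were 13607229 to 21267375 counts (median 16521369), so counting error is small for the members.

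The members and gene lists were chosen with earlier results of these data known. Genes were named by rule: the members, the tested sodium channel and CLC genes, up to 4 genes per list past the threshold with the largest changes from 8 to 28 months, and for each member the 5 genes with the highest r. Fits were tested on simulated data. Same-numbered mice of 8 and 28 months did not deviate together (8 pairs, r from -0.17 to 0.19, median 0.07), so the numbers showed no pairing there. The other ages were not compared in this way. Lengths and positions come from GENCODE vM21, a release near but not equal to that of the authors, and 12581 of 12586 tested genes matched. Atp1a4 and Myh3 were not analysed here, and some genes of these lists are not reported here.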

Additional observations from a re-analysis of the deposited data

Results flagged for a closer look

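Of 36 groups of mice examined for a sample far from the others (Dixon's test at 95%, which by chance marks about 1 in 20 groups), 7 held such a sample. Replicate 4 at 26 months was high in both sodium channel genes, with 728 CPM of Scn4a against 636 CPM in the nearest mouse and 742 CPM of Scn4b against 617 CPM. Replicate 6 at 18 months was low in Scn4b, at 491 CPM against 567 CPM in the nearest mouse. Replicate 4 at 18 months was high in Clcn1, at 269 CPM against 224 CPM.

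The remaining 3 were ratios. Replicate 3 at 8 months had a log2 Clcn1/Scn4a ratio of -0.030, above the nearest mouse at -0.59, and it was also the mouse with the lowest Scn4a. Replicate 2 at 28 months had a log2 ratio of -2.26 for Clcn1/Scn4a and of -1.82 for Clcn1/Scn4b, far below the nearest mice at -1.54 and -0.95. The same animal had the lowest Clcn1 level of all mice, 74.4 CPM.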

How the results depend on the processing

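Of 337 values under other settings, 304 were kept. The 337 cover the 3 genes, their ratios and the number of genes called from 8 to 28 months. Kept means the same direction and side of the threshold, or for that number a value near the main one. With the replicate number as a block, Scn4b from 8 to 28 months was -0.27 (adjusted p = 0.000951 in edgeR), Clcn1 -0.32 (adjusted p = 0.0331) and 4954 genes were called. The block changed no call of the members and ended that of Fxyd6 (-0.64, adjusted p = 0.0111 in edgeR). Between 8 and 28 months, no library deviated most like its own number (0 of 8). Scn4b from 8 to 28 months missed 0.01 in limma with either pseudocount (-0.21, adjusted p = 0.0242 and 0.0257) and with only the compared mice (-0.27, adjusted p = 0.0204), and from 22 to 28 months in limma with 0.1 added (-0.26, adjusted p = 0.0104) and with only the compared mice (-0.30, adjusted p = 0.0142). Its range without any single mouse was -0.31 to -0.22 against 8 months. Differences near 0 changed sign. For Clcn1 from 22 to 24 months they were 0.0014 in DESeq2, 0.0054 and 0.0054 in limma and 0.0014 with only the compared mice. For Scn4a from 24 to 26 months they were -0.033 with upper-quartile factors, -0.0038 with no filter, -0.011 with the block, -0.0062 in DESeq2 and -0.0066 with only the compared mice. Upper-quartile factors also gave Scn4a -0.0074 (26 to 28 months), -0.0034 (22 to 26 months) and -0.011 (22 to 28 months). Clcn5 gave 0.0043 in limma with 1 added and -0.22 to 0.030 without single mice, and Scn2b -0.062 with the length covariate, where Scn4a was -0.18 and -0.20 from 8 and 22 to 28 months. Without both 8-month replicate 3 and 28-month replicate 2, Scn4a was -0.070, -0.052, -0.013 and -0.017 at 18, 22, 24 and 26 months, Scn4b -0.00066 at 24 months, and the 28-month ratios -0.34 (Scn4b/Scn4a), -0.31 (Clcn1/Scn4a) and 0.024 (Clcn1/Scn4b). At 22 months those ratios were 0.066, 0.050 and -0.016. On counts, the first 2 ratios were -0.39 and -0.44 at 28 months. Without single mice, the ranges of Scn4a against 8 months were -0.069 to 0.074 (18 months), -0.055 to 0.088 (22), -0.016 to 0.13 (24), -0.015 to 0.13 (26) and -0.0022 to 0.14 (28), and -0.030 to 0.059 (18 to 22 months), -0.045 to 0.032 (24 to 26) and -0.027 to 0.048 (26 to 28). Scn4b ranged from -0.020 to 0.038 (24 against 8 months) and -0.045 to 0.014 (24 against 22), and Clcn1 from -0.00088 to 0.075 and -0.028 to 0.042. Scn4b/Scn4a ranged from -0.15 to 0.066, -0.38 to -0.17 and -0.57 to -0.35 at 22, 26 and 28 months, Clcn1/Scn4a from -0.10 to 0.050, -0.39 to -0.25 and -0.59 to -0.42, and Clcn1/Scn4b from -0.016 to 0.058, -0.082 to 0.031 and -0.088 to 0.073. At 28 months both ratios to Scn4a passed in 4 of 17 of these. Genes called from 8 to 28 months numbered 3443 to 5181 over the planned settings that kept all mice of these ages, and 2848 with the covariate. In the fits with a single mouse left out they numbered 4350 to 5423. From 22 to 28 months 3485 were called, but 1883 with only the compared mice and 1340 with the covariate. From 8 to 26 months 2314 were called, and 1454 without 26-month replicate 1. The causes were not tested.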

Other observations

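The TPM given per CPM differed between mice for all 3 genes. For Scn4a it ran from 0.254 (replicate 3) to 0.429 (replicate 8) at 8 months and from 0.360 to 0.446 at 28 months, with medians of 0.353 and 0.382. For Scn4b the medians were 0.342 and 0.356, and for Clcn1 0.522 and 0.547. The lowest TPM per CPM at 8 months was in replicate 3 and the highest in replicate 8 for each of the 3 genes. Fold changes on TPM and on counts therefore differ: for Scn4a the log2 difference from 8 to 28 months was 0.29 on TPM (limma, adjusted p = 0.112) against 0.09 on counts. Over all tested genes the median difference was 0.06 on TPM (limma, 1 added) against 0.01 on counts.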
